A study of Mus musculus with 26 samples.

Results

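The 9 genes described here are known from the mesonephric (Wolffian) duct and its tubules and were followed through RNA-seq libraries of fetal mouse gonads: Pax2, Pax8, Gata3, Ret, Wnt9b, Sim1, Hnf4a, Lhx1 and Cdh16. These members were chosen by name, of 57186 genes in the count table of all deletions and 31053 in the Meis1 table, and all 9 passed the filter on low counts in both tables. The study profiled XY gonads at the embryonic stage E13.5 from 6 groups, 26 samples in all. WT (3 samples) was compared with 4 deletions at the locus of Fgf9, the growth factor gene that acts in testis differentiation. The labels call them Δ306, with 3 samples, Δ225, with 6, Δ104, with 4, and Δ93, with 6. The sixth group, of 4 samples, lacks Meis1, a homeobox gene, and is called Meis1 KO here. The labels give no boundaries or zygosity for the deletions, no strain, no Cre or promoter for the knockout, and no litters or dates. Per the labels' protocols, each gonad was separated from the mesonephros with syringes under saline before freezing, so RNA of duct and tubule genes can come from attached mesonephric tissue or from gonadal cells.

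The mesonephros lies beside the gonad and is an embryonic kidney. Its epithelial duct grows under GDNF, which signals through the receptor tyrosine kinase RET, and the duct secretes WNT9B, which induces tubules in the neighbouring mesenchyme. PAX2 and PAX8 are paired-box factors that specify this lineage, GATA3 and LHX1 act with them in the duct, HNF4A is a nuclear receptor of proximal tubule epithelium, SIM1 is a bHLH-PAS factor, and cadherin 16 (Cdh16, also named kidney-specific cadherin) is an adhesion protein of tubule and duct epithelium. Several members are also known elsewhere: Ret and Lhx1 in male germ cells of the gonad, and Pax8 outside the gonad in the epithelia of the female tract.

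Libraries held 11.6 to 53.4 M counts in the table of all deletions (median 36.8) and 35.5 to 51.7 M in the Meis1 table, M standing for 1000000. Levels are in CPM, counts per M on TMM-scaled library sizes, and those near 0.1 CPM rest on a few reads each. Fgf9 was at 9.21 to 9.85 CPM in WT and at 2.17 to 6.98 CPM in every deletion library except Δ225 replicate 3, at 16.5 CPM, above every WT library. The labels do not say whether a deletion removes part of Fgf9 itself, so these levels do not check them, and results that rest on Δ225 replicate 3 are given with and without it. WT replicate 1 stands apart too: its 7 germ-cell genes summed to 15.8 CPM, against 496 and 735 CPM in the other two. Meis1 was at 109, 62.1 and 64.2 CPM in WT and at 0.201 to 0.695 CPM in the 4 Meis1 KO libraries of the same table. Every replicate pair differed beyond counting error. The later samples are labelled as biological replicates and nothing says so of WT and Δ306, so p-values measure the spread between these samples only.

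Per kilobase of exon, the WT order was Lhx1 (4.75 ± 3.16 CPM per kb, mean ± SD, n = 3), Cdh16 (1.65 ± 1.77), Ret (1.00 ± 0.739), Pax8 (0.788 ± 0.145), Gata3 (0.625 ± 0.531), Wnt9b (0.624 ± 0.859), Pax2 (0.572 ± 0.638), Hnf4a (0.137 ± 0.171) and Sim1 (0.0329 ± 0.0291). No neighbours in that order differed by more than their spread. The SD exceeded the mean for Cdh16, Wnt9b, Pax2 and Hnf4a, and was smallest beside its mean for Pax8.

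**Figure D1:**
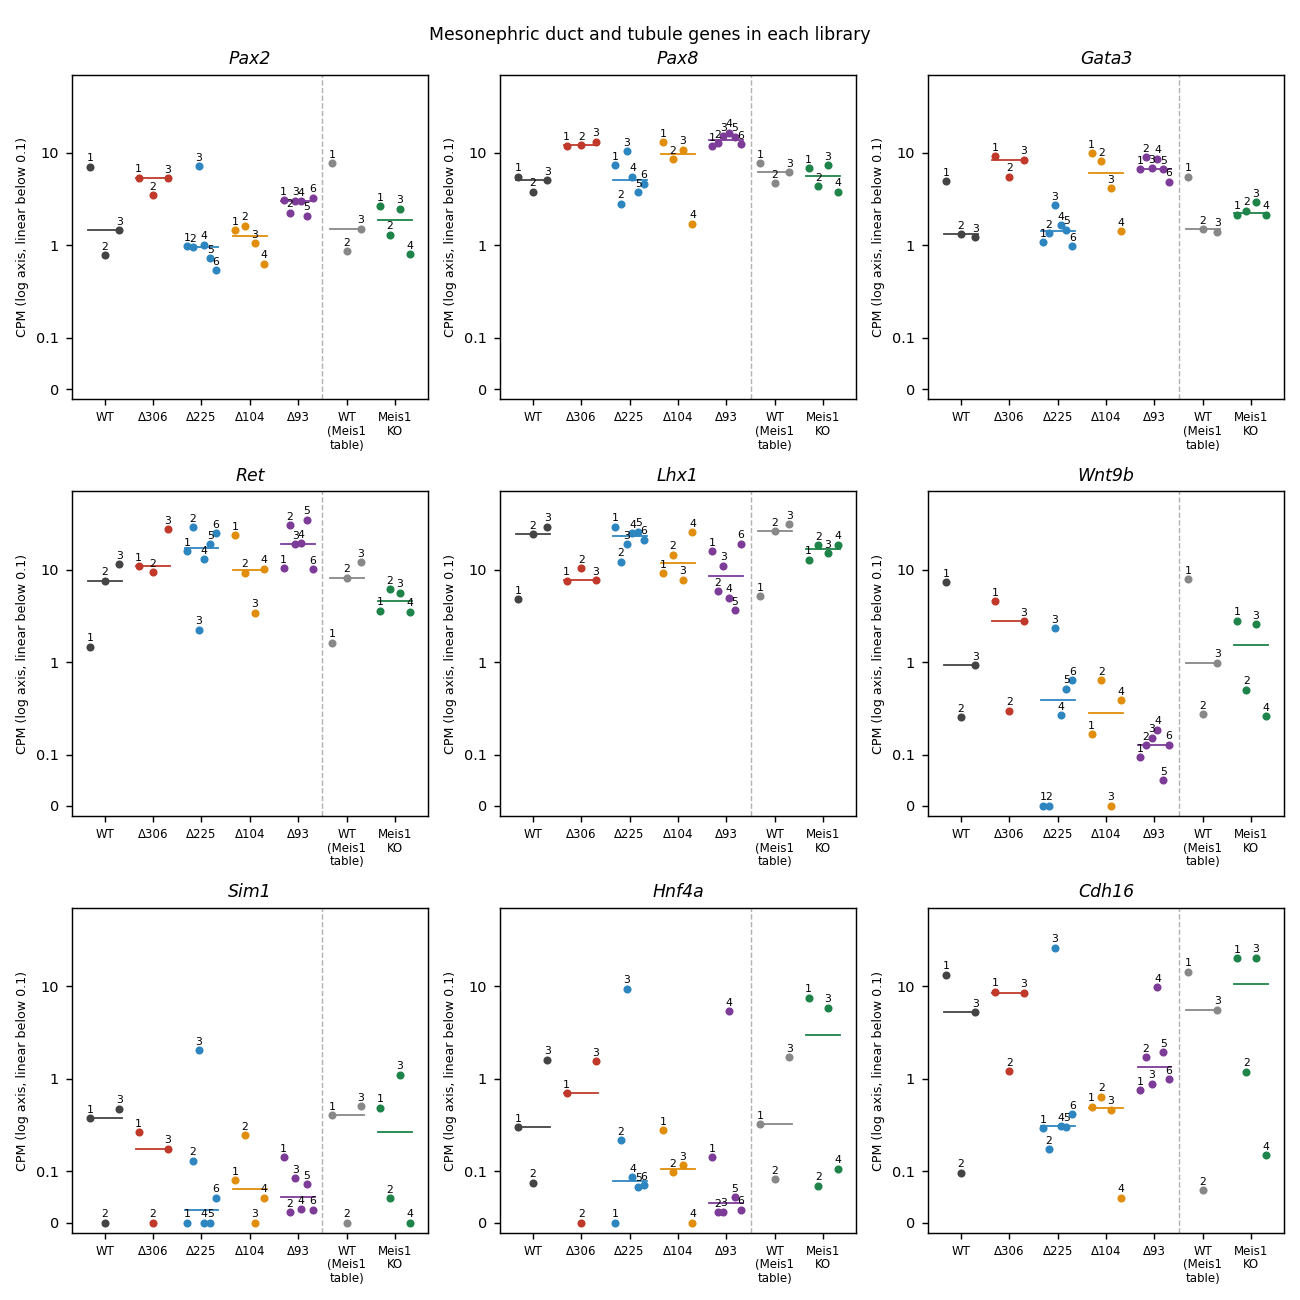
Each panel shows 1 gene; every point is 1 library, numbered by its replicate, on a log CPM axis that turns linear below 0.1, and the bars are group medians. WT appears in both count tables, to the left and right of the dashed line. Pax8 and Gata3 are higher in every Δ306 and Δ93 library than in any Δ225 library, and Δ104 is spread. Cdh16, Hnf4a, Sim1 and Wnt9b have single libraries far above the rest of their group.

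The members differ in how their spread divides. On a log2(CPM + 0.1) scale over the 22 libraries of WT and deletions, group accounted for 69.6% of the variance of Gata3 and 53.7% of that of Pax8, but for 6.6% of Hnf4a and 7.8% of Sim1. The others lay between, with Pax2 at 42.3%, Wnt9b at 41.5%, Lhx1 at 36.1%, Cdh16 at 28.1% and Ret at 26.5%. The SD within groups was 0.72 and 0.67 for Gata3 and Pax8, and 2.01 for both Hnf4a and Cdh16. Pax8, Ret and Lhx1 were above 1 CPM in 22 of 22 libraries and Gata3 in 21. Pax2 was in 16, Cdh16 in 9, Wnt9b and Hnf4a in 4 each and Sim1 in 1.

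Cdh16, Hnf4a and Wnt9b were high in a few libraries of several genotypes, and Sim1 was above 1 CPM in 1 of 22. Cdh16 in WT was at 13.4, 0.0971 and 5.28 CPM in replicates 1, 2 and 3. In Δ306 it was at 8.78, 1.22 and 8.51 CPM. In Δ225 it ran from 0.174 to 0.415 CPM in 5 libraries and stood at 26.3 CPM in replicate 3. Within a single genotype Cdh16 thus spanned 138-fold in WT and 152-fold in Δ225. It was at 0.0486 to 0.639 CPM in the 4 Δ104 libraries, and in Δ93 at 0.754 to 1.96 CPM in 5 libraries and 9.84 CPM in replicate 4.

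Hnf4a was highest in the same Δ225 and Δ93 libraries. It stood at 9.43 CPM in Δ225 replicate 3, against 0 to 0.217 CPM in the other 5, and at 5.41 CPM in Δ93 replicate 4, against 0.0211 to 0.141 CPM in the other 5. WT had 0.301, 0.0777 and 1.61 CPM and Δ306 had 0.702, 0 and 1.55 CPM, low in replicate 2 of each as Cdh16 was. The 4 Δ104 libraries had 0 to 0.278 CPM.

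Sim1 and Wnt9b shared some of these libraries. Sim1 was at 2.03 CPM in Δ225 replicate 3, its only value above 1 CPM, and at 0 in 6 of 22 libraries. WT had 0.377, 0 and 0.475 CPM of Sim1. Wnt9b was highest in WT replicate 1 (7.29 CPM), with 0.253 and 0.923 CPM in replicates 2 and 3, and Δ306 had 4.52, 0.297 and 2.76 CPM. In Δ225 it reached 2.32 CPM in replicate 3 and was at 0 to 0.635 CPM in the other 5, in Δ104 at 0 to 0.639 CPM, and in Δ93 at 0.0501 to 0.186 CPM. Unlike Hnf4a and Cdh16, Wnt9b in Δ93 replicate 4 (0.186 CPM) was close to the other Δ93 libraries.

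Pax2, which marks both duct and tubules, was high in some of these libraries, with a smaller range. WT had 7.06, 0.777 and 1.45 CPM, Δ306 had 5.35, 3.48 and 5.26 CPM, and Δ225 replicate 3 had 7.16 CPM against 0.537 to 1.01 CPM in the other 5 Δ225 libraries. The 4 Δ104 libraries lay at 0.632 to 1.62 CPM and the 6 Δ93 libraries at 2.08 to 3.27 CPM, where replicate 4 did not stand apart. The Δ93 range did not overlap those of Δ104 and Δ306, which was so for 1.89% and 6.38% of all genes.

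Tfap2b, a duct factor named after its values were seen, had its highest value in another library, 9.88 CPM in Δ104 replicate 2, against at most 1.05 CPM in the other 21. Lrp2 and Slc34a1, an endocytic receptor and a phosphate transporter of proximal tubule also named after their values were seen, were highest in Δ225 replicate 3, at 37.6 and 2.47 CPM, against at most 12.2 and 0.158 CPM in the other 21. Δ225 replicate 3 was thus the highest library for these tubule genes as well as for Cdh16, Hnf4a, Sim1 and Pax2.

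The upstream start of Hnf4a is shown because group accounted for the smallest share of this gene's variance and because the window holds the letters of a GATA motif, Gata3 being a member. The window is 300 bases, 250 before to 50 after the start, from RefSeq on GRCm38.p6, 5′ to 3′ on the plus strand, with capitals marking the motif match.
Hnf4a upstream start, chr2:163506607-163506906: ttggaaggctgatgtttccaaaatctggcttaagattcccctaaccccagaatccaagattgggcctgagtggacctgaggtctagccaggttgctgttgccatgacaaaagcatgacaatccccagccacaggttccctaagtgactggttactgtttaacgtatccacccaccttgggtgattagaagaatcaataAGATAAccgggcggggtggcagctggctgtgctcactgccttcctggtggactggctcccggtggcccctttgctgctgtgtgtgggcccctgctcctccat
The capitals are 1 match to the letters AGATAA of the GATA factors, 52 bases before the start. Of 32851 promoter windows of the same length, 11.2% hold these letters on either strand. Of the other motifs reported here, searched on both strands, 4 were found in none of the 10 windows of the 7 members present in the table. They are the letters of NR5A1, AAGGTCA, which 4.7% of all windows hold, those of the SOX family, AACAAT, in 10.7%, those of HNF4, CAAAGTCCA, in 0.5%, and those of the ETS family, CCGGAAGT, in 3.9%. A match describes letters and is no evidence of binding.

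**Figure D2:**
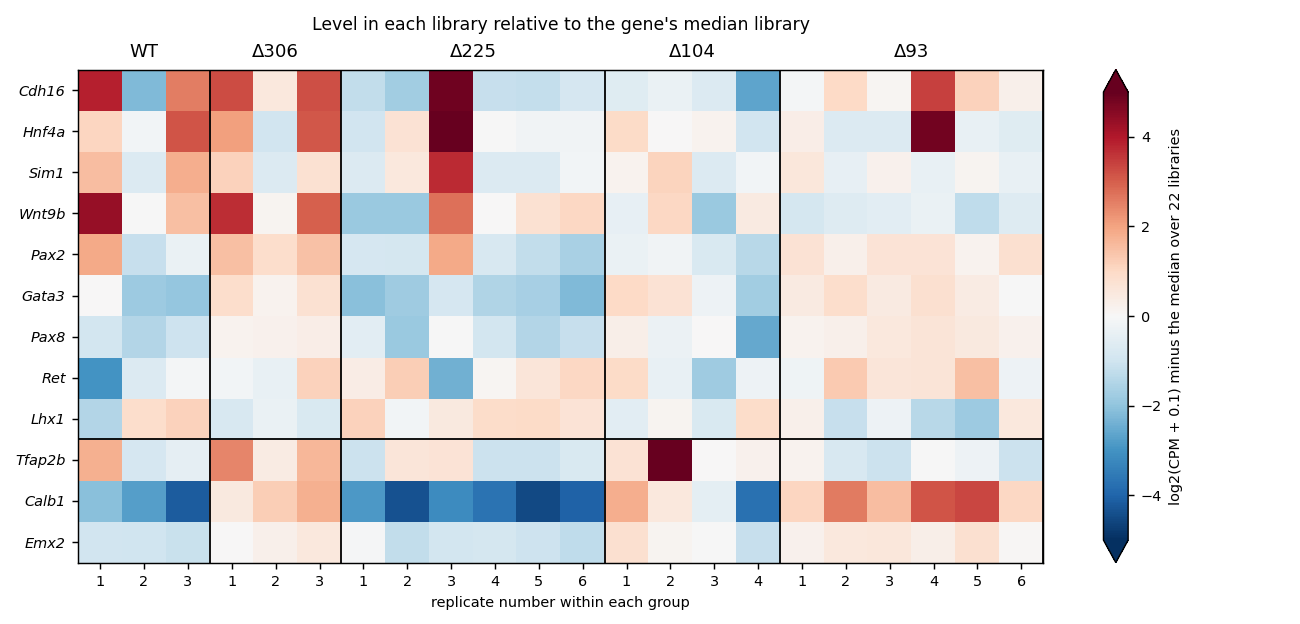
Rows are the 9 members and 3 other duct genes (below the line), columns are the 22 WT and deletion libraries, and colour is log2(CPM + 0.1) minus the gene's median over the libraries, with the scale ending at 5 either way. The red cells of Cdh16 and Hnf4a fall in the same columns of several genotypes, while Gata3, Pax8, Calb1 and Emx2 follow the genotype blocks more closely.

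Pax8 and Gata3 followed genotype more than the other members did. Pax8 was at 5.48, 3.79 and 5.06 CPM in WT and at 11.9, 12.1 and 13.1 CPM in Δ306. The 6 Δ93 libraries ran from 11.8 to 16.4 CPM (median 13.8) and the 6 Δ225 libraries from 2.82 to 10.4 CPM (median 5.06). All Δ306 and Δ93 libraries were above every WT and every Δ225 library. Δ104 was split, with 13.0, 8.50 and 10.8 CPM in replicates 1 to 3 and 1.70 CPM in replicate 4.

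Gata3 had a similar layout, except that the lowest Δ93 library was just below WT replicate 1. WT was at 4.92, 1.32 and 1.21 CPM, replicate 1 standing above the other two, and Δ306 at 9.22, 5.50 and 8.37 CPM. Δ93 ran from 4.87 to 8.97 CPM (median 6.73) and Δ225 from 0.977 to 2.71 CPM (median 1.41). In Δ104 the values were 9.94, 8.06, 4.13 and 1.41 CPM, so replicate 4 was at the level of WT replicates 2 and 3, whereas for Pax8 it was below every WT library.

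Pax8 was higher in Δ93 than in WT, 13.9 ± 1.86 against 4.78 ± 0.880 CPM (mean ± SD, n = 6 and 3), a log2 difference of 1.54 with an SE of 0.44 (adjusted p = 0.0225 by edgeR's quasi-likelihood test with Benjamini-Hochberg adjustment). In Δ93 against WT 2 of 9 members were called (adjusted p under 0.05), Pax8 higher and Wnt9b lower, where 14.1% of all genes tested were called. The same 2 members did not overlap between these groups, as was so for 24.7% of all genes. A call here cannot tell more cells of a type from more RNA per cell, since these are bulk samples. The call of Pax8 rests on 3 WT libraries: its adjusted p was 0.0677, 0.116 and 0.0737 without WT replicate 1, 2 or 3. Gata3 in Δ93 was 1.51 ± 0.51 above WT on the log2 scale and missed the threshold (adjusted p = 0.0522). Without WT replicate 1 it was 2.48 (adjusted p = 0.0158).

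In Δ306 against WT 0 of 9 members were called by edgeR, where 6.43% of all genes were. At an unadjusted p under 0.05 there were 2, against 21.9% of all genes, Pax8 (1.37 ± 0.48, adjusted p = 0.0874) and Gata3 (1.63 ± 0.56, adjusted p = 0.0862), and DESeq2 called 2. For these 2 members the Δ306 and WT libraries did not overlap, as was so for 37.6% of all genes. Pax8 was called where Δ306 and WT were fitted alone (1.38, adjusted p = 0.00674) and in the first count table, which holds only these groups (1.4, adjusted p = 0.00724). Gata3 was called without WT replicate 1 (2.57, adjusted p = 0.0333).

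Between deletions, Gata3 was lower in Δ225 than in each of the other 3, and Pax8 was lower in Δ225 than in Δ93. Gata3 was lower in Δ225 (1.54 ± 0.626 CPM, n = 6) than in Δ306 (7.70 ± 1.95, n = 3), a log2 difference of -2.32 ± 0.47 (edgeR adjusted p = 0.00324), the 1 call of 9 members, against 13.2% of all genes. Pax8, Gata3 and Lhx1 did not overlap between these groups, Pax8 and Gata3 with Δ225 below Δ306 and Lhx1 with Δ225 above, and 20.2% of all genes did not overlap. Against Δ93 both Gata3 (-2.20 ± 0.41, adjusted p = 0.000827) and Pax8 (-1.29 ± 0.34, adjusted p = 0.0103) were lower in Δ225, the 2 calls of 9, against 20.8% of all genes, and neither overlapped, as was so for 11% of all genes. The Gata3 calls against Δ306 and Δ93 held under all 19 and all 22 alternatives run, and that of Pax8 against Δ93 under 21 of 22, the exception being a threshold of 0.01. Against Δ104 Gata3 was lower (-1.93 ± 0.44, adjusted p = 0.0429), 1 of 9 members where 0.645% of all genes were called, but the groups overlapped. That call was lost without any 1 of 7 libraries (Δ225 replicates 1, 2, 4, 5 and 6, adjusted p 0.0798 to 0.107, and Δ104 replicates 1 and 2, 0.415 and 0.167), and with the replicate number as a block (-1.59, adjusted p = 0.336).

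Supporting-cell markers differed between the genotypes in which both genes differed. The 8 pre-granulosa genes, markers of the supporting cells of the ovary, summed to 68.5 to 119 CPM in WT, 73.0 to 114 CPM in Δ225, 414 to 791 CPM in Δ306 and 465 to 1164 CPM in Δ93. In Δ104 the sum was 810, 397, 157 and 70.6 CPM in replicates 1 to 4. That is the order of Gata3 in these libraries but not of Pax8. The 10 Sertoli genes, markers of the supporting cells of the testis, summed in the same 4 libraries to 85.8, 634, 1502 and 2693 CPM. The Sertoli sum was 2875 to 3301 CPM in WT and 877.5 to 2864 CPM in Δ225. In Δ306 it was 136.5 to 748.3 CPM and in Δ93 83.62 to 1244 CPM, both below every WT library. Against WT 7 of 8 pre-granulosa genes were called higher in Δ306 and 8 of 8 in Δ93, with median log2 fold changes of 3.27 and 3.68, and 0 of 10 and 3 of 10 Sertoli genes were called lower. Of all genes tested, 6.43% and 14.1% were called in these comparisons, in either direction. The part of the supporting cells in the Pax8 and Gata3 differences was not tested.

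The starts of Pax8 and Gata3 are shown because these 2 members differed between genotypes together. Both windows, from the same RefSeq table, are read on the minus strand, and none of the motifs spelled out above was found in either, which says only that those letters are absent here.
Pax8 start, chr2:24475550-24475849: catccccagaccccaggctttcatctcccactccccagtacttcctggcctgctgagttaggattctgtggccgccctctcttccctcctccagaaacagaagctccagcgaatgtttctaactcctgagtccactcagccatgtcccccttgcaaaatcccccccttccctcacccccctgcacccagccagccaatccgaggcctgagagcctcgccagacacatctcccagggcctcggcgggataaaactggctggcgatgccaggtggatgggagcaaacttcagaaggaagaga
Gata3 start, chr2:9878551-9878850: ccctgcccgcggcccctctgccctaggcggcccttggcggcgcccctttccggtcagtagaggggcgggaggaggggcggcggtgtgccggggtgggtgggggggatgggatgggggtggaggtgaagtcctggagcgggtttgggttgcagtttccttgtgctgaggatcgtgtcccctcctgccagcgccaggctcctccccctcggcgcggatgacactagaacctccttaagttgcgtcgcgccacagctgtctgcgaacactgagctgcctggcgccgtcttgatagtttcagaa
Pax8 (ENSMUSG00000026976) spans chr2:24420560-24475599 and Gata3 (ENSMUSG00000015619) chr2:9857078-9890034, both on the minus strand of GRCm38. Annotated antisense genes overlap Pax8 (Gm13415), Gata3 (Gm13256 and 4930412O13Rik), Pax2 (Gm20395 and 1700039E22Rik) and Hnf4a (Hnf4aos). Whether the counting used strand is not given in the sources used here, and without strand such reads cannot be told apart.

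Of the 10 other duct genes, Emx2 and Calb1 were called higher in both Δ306 and Δ93 and none lower. Emx2, a homeobox factor of duct and gonad, was above WT by 1.29 ± 0.34 in Δ306 (adjusted p = 0.03) and 1.44 ± 0.31 in Δ93 (adjusted p = 0.00499). Calb1, a calcium-binding protein, was higher by 4.18 ± 0.95 (adjusted p = 0.0146) and 5.36 ± 0.97 (adjusted p = 0.00163), from 0.264 to 1.41 CPM in WT to 9.0 to 22.2 CPM in Δ306 and 13.3 to 66.0 CPM in Δ93. In Δ104 Calb1 was at 22.5, 9.34, 4.54 and 0.389 CPM, in the order of the pre-granulosa sum. The median log2 fold change of the 10 duct genes was 0.31 in Δ306, -0.79 in Δ225, -0.70 in Δ104 and -0.73 in Δ93, against 0.08, 0.044, 0.063 and 0.065 over all genes tested.

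Wnt9b was lower in Δ93 than in WT, 0.123 ± 0.0467 against 2.82 ± 3.88 CPM (n = 6 and 3), a log2 fold change of -4.46 ± 1.09 (edgeR adjusted p = 0.00952), with no overlap between the groups. This value rests on WT replicate 1, at 7.29 CPM: without it the change was -2.20 (adjusted p = 0.243), and with the replicate block -3.72 (adjusted p = 0.071). WT replicate 1 was also the library low in germ-cell genes and highest among WT in Cdh16 and Pax2, and the part of its make-up in the Wnt9b value was not tested. Against Δ306 the Δ93 value was -4.30 ± 1.09 and was not called (adjusted p = 0.191), and DESeq2 called it (-4.35, adjusted p = 0.0206).

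**Figure D3:**
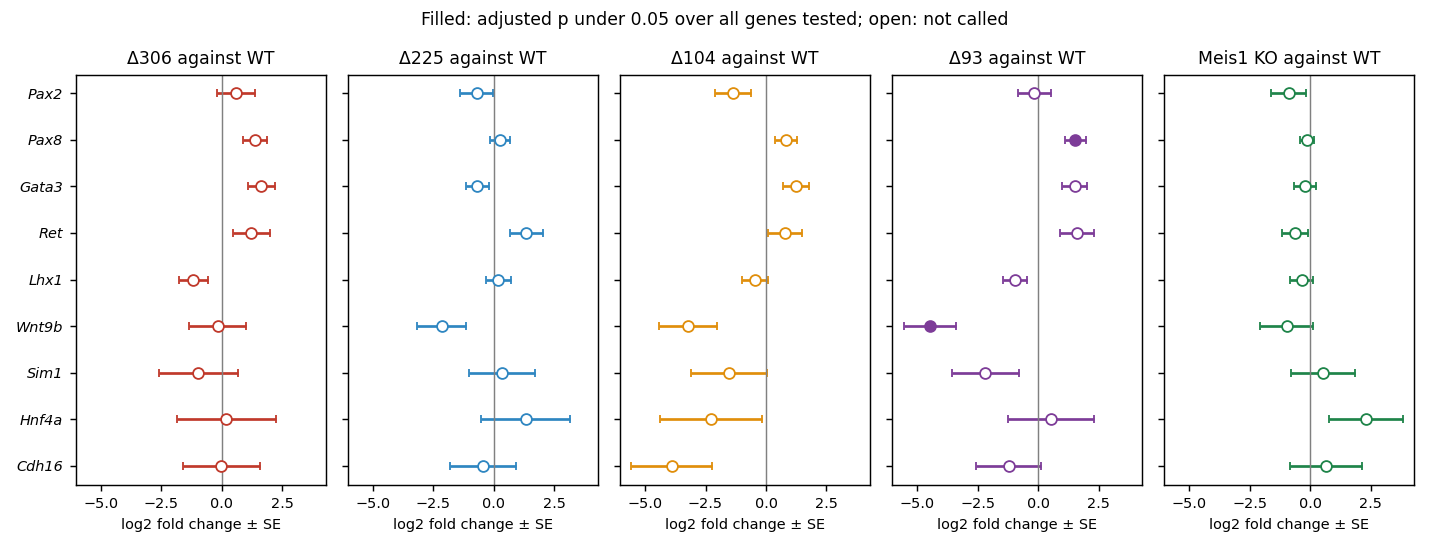
Points are log2 fold changes of each member against WT with their SE in the 5 mutant groups, filled where the adjusted p over all genes tested was under 0.05. Only Pax8 and Wnt9b in Δ93 are filled, and the intervals of Hnf4a, Cdh16 and Sim1 are the widest in most panels.

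Δ225 and Δ104 had no called member against WT. In Δ225 0 of 9 were called by edgeR and 0 by DESeq2, where 0.209% of all genes were called by edgeR. At an unadjusted p under 0.05 there was 1 (Wnt9b, -2.16 ± 1.01), against 16.1% of all genes. In Δ104 0 of 9 were called by either tool, where 0.061% of all genes were called by edgeR. At an unadjusted p under 0.05 there were 3, Gata3 (1.25 ± 0.53), Wnt9b (-3.23 ± 1.21) and Cdh16 (-3.90 ± 1.67), against 15.7% of all genes. The remaining pairs of deletions had no edgeR call. In Δ104 against Δ306 0 of 9 were called, and 0 by DESeq2, where edgeR called 0.0654% of all genes, and 3 were at an unadjusted p under 0.05, against 11.1% of all genes. In Δ93 against Δ306 0 of 9 were called, and 1 by DESeq2, where edgeR called 0.0785% of all genes, and 1 was at an unadjusted p under 0.05, against 9% of all genes. In Δ93 against Δ104 0 of 9 were called, and 0 by DESeq2, where edgeR called 0.0523% of all genes, and 0 were at an unadjusted p under 0.05, against 14.5% of all genes. Cdh16 in Δ104 against Δ306 did not overlap (11.2% of all genes did not) and had a log2 fold change of -3.88 with an SE of 1.67 (edgeR adjusted p = 0.379).

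Leaving out Δ225 replicate 3 changed what Δ225 showed. Without it Cdh16 was lower in Δ225 than in Δ306 (-4.34, edgeR adjusted p = 0.0102) and than in Δ93 (-3.18, adjusted p = 0.0232), where the values with it were -0.42 and 0.77. Pax2 likewise was lower than in both (-2.50, adjusted p = 0.00274, and -1.75, adjusted p = 0.00745), from -1.32 and -0.56 with it, and Pax8 was lower than in Δ306 (-1.39, adjusted p = 0.0237), from -1.12. Calls then numbered 4 of 9 against each of Δ306 and Δ93, where 13.4% and 18.6% of all genes were called. The library left out held the highest Δ225 values of Cdh16, Pax2 and Pax8. Lower levels and a smaller spread follow from leaving it out, so these calls are no separate test of the genotypes. Without Δ93 replicate 4, the Δ93 library highest in Hnf4a, Hnf4a was instead higher in Δ225 than in Δ93 (5.07, edgeR adjusted p = 0.0363, from 0.78 with it).

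Ret and Lhx1 were present in all 22 libraries and did not follow Cdh16, Hnf4a, Sim1 and Wnt9b. Ret, the receptor, was at 1.46, 7.54 and 11.4 CPM in WT and at 10.9, 9.40 and 27.4 CPM in Δ306. Δ225 ran from 2.23 CPM in replicate 3 to 28.8 CPM (median 17.3), Δ104 from 3.43 to 23.7 CPM (median 9.77) and Δ93 from 10.1 to 34.6 CPM (median 19.0). Against WT Ret in Δ93 was 1.60 ± 0.70 on the log2 scale and was not called (edgeR adjusted p = 0.135). Its lowest values were in the libraries where Wnt9b (WT replicate 1) and Hnf4a (Δ225 replicate 3) were highest.

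Lhx1, the LIM-homeobox member, was at 4.77, 24.1 and 29.2 CPM in WT and at 7.59, 10.4 and 7.70 CPM in Δ306. Δ225 ran from 12.1 to 29.2 CPM (median 23.0), Δ104 was at 9.11, 14.4, 7.79 and 25.2 CPM, and Δ93 ran from 3.63 to 19.1 CPM (median 8.42). Δ306 lay below every Δ225 library (Δ225 minus Δ306 1.36 ± 0.55, edgeR adjusted p = 0.105, and 0.0387 by DESeq2). The Δ225 and Δ93 ranges overlapped (1.13 ± 0.42, adjusted p = 0.0623, and 0.0263 by DESeq2).

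The 7 germ-cell genes moved with both between libraries. Their sum was lowest in WT replicate 1 (15.8 CPM) and Δ104 replicate 3 (156 CPM), where Ret was at 1.46 and 3.43 CPM and Lhx1 at 4.77 and 7.79 CPM, the lowest of WT and of Δ104 for each. With group means removed, Ret correlated with the mean log2 CPM of the germ-cell list at Pearson's r = 0.66 (Spearman's rho 0.56, 22 libraries, permutation adjusted p = 0.0313 and 0.0694), and Lhx1 at r = 0.70 (rho 0.57, permutation adjusted p = 0.0313 and 0.0619). Without WT replicate 1 and Δ104 replicate 3 the values were 0.43 and 0.38 (permutation p = 0.138 and 0.122), so the relations rest on those libraries. Between Ret and Lhx1 r was 0.07 (permutation adjusted p = 0.812).

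Gdnf, the ligand of RET, which gonadal somatic cells are also known to make, was lower in Δ93 than in WT (-3.33 ± 0.91, edgeR adjusted p = 0.0189), with 4.60 ± 5.19 against 46.2 ± 5.95 CPM (mean ± SD). In Δ306 it was at 1.70 to 10.1 CPM (-2.71 ± 1.15, adjusted p = 0.166). Gfra1, its co-receptor, named after its values were seen, was at 4.66 to 7.04 CPM in WT and reached 13.2 CPM in Δ225 replicate 3. Of 9 genes of nephron-forming mesenchyme, Eya1 was called lower in Δ306 (-1.91 ± 0.44, adjusted p = 0.0154), and Eya1 (-2.44 ± 0.36, adjusted p = 0.000645), Gdnf and Hoxa11 (-3.26 ± 1.09, adjusted p = 0.0493) in Δ93, with none higher. Of 9 tested tubule and glomerulus genes of 11 listed, Jag1, a Notch ligand, was called lower in both (-2.22 ± 0.45 and -2.44 ± 0.36) and none higher. Of 12 genes of simple epithelia, Krt18 (1.1 ± 0.34) and Krt19 (1.44 ± 0.45), keratins that gonadal cells also make, were called higher in Δ93, and none in Δ306. Beside these lists, 6.43% of all genes were called in Δ306 and 14.1% in Δ93. The tubule and epithelial counts in Δ93 are near that share.

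Other gonadal lists in Δ93 against WT gave 4 of 5 fetal Leydig genes lower, 7 of 7 meiotic germ-cell genes higher, 2 of 4 endothelial genes lower, and 0 of 7 germ-cell, 0 of 5 tested male germ-cell and 0 of 4 blood genes in either direction. In Δ306 the counts were 3 Leydig and 1 endothelial gene lower, 2 meiotic genes higher and 0 in the germ-cell, male germ-cell and blood lists. The shares of all genes called were 14.1% in Δ93 and 6.43% in Δ306. The median log2 fold change of the 9 members was 0.19 in Δ306 and -0.16 in Δ93, where that of all genes was 0.08 and 0.065.

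The members were related to each other once group means were removed. Of 72 relations computed (36 pairs of members, 36 of a member with a list), 28 passed an adjusted p of 0.05 by Pearson's r and 12 by Spearman's rho, in permutations within groups. The closest pairs were Pax2 with Cdh16 (r = 0.82, rho 0.63, adjusted permutation p = 0.0145 and 0.0398) and Hnf4a with Cdh16 (r = 0.81, rho 0.78, adjusted permutation p = 0.0124 and 0.0137). Without the 2 libraries farthest from the median they were 0.52 and 0.60 (permutation p = 0.072 and 0.086). Without WT replicate 1 and Δ225 replicate 3 together 0 of 72 passed, with 17 at an unadjusted p under 0.05.

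Against the mean of the 10 duct genes, Cdh16 (r = 0.85, rho 0.80), Pax2 (0.84, 0.81), Gata3 (0.77, 0.78) and Hnf4a (0.72, 0.76) passed by both measures, with adjusted permutation p of 0.00594 to 0.0145 for r and 0.00864 to 0.0117 for rho. Leaving out Δ104 replicate 2 and Δ225 replicate 3, r was 0.83, 0.76, 0.80 and 0.68. Leaving out WT replicate 1 and Δ225 replicate 3, r was 0.65, 0.67, 0.72 and 0.61, and none passed (adjusted permutation p 0.0711 to 0.196). The duct list holds Calb1, which in Δ104 had the order of the pre-granulosa sum. Gata3 also varied with the pre-granulosa list (r = 0.79, rho 0.64, adjusted permutation p = 0.00594 and 0.0446, and 0.56 without Δ104 replicates 1 and 4). For Pax8 the corresponding r was 0.73 (rho 0.49, adjusted permutation p = 0.0445 and 0.0619) and 0.22 without those 2 libraries, so it rests on them. With all libraries kept, Gata3 thus varied with both lists, and Cdh16, Pax2 and Hnf4a with the duct list. Of those 3, r with the pre-granulosa list was 0.37, 0.31 and 0.30, and that of Cdh16 passed (adjusted permutation p = 0.0178).

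**Figure D4:**
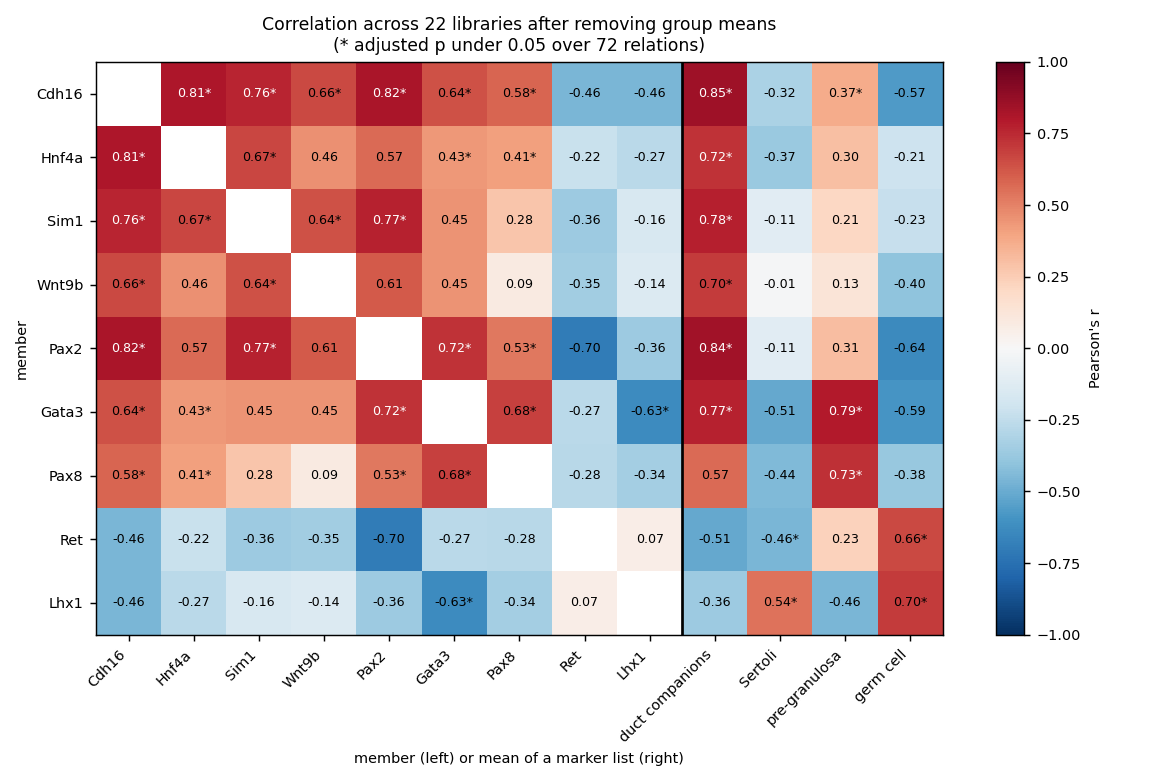
Cells give Pearson's r between members (left) and between members and the mean of 4 marker lists (right), over 22 libraries on the log2 CPM scale with group means removed, and stars mark a permutation p under 0.05 adjusted over 72 relations. Among the first 7 genes r runs from 0.09 (Pax8 with Wnt9b) to 0.82 (Cdh16 with Pax2), not all of it starred, and the starred values with the germ-cell list are those of Ret and Lhx1.

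**Figure D5:**
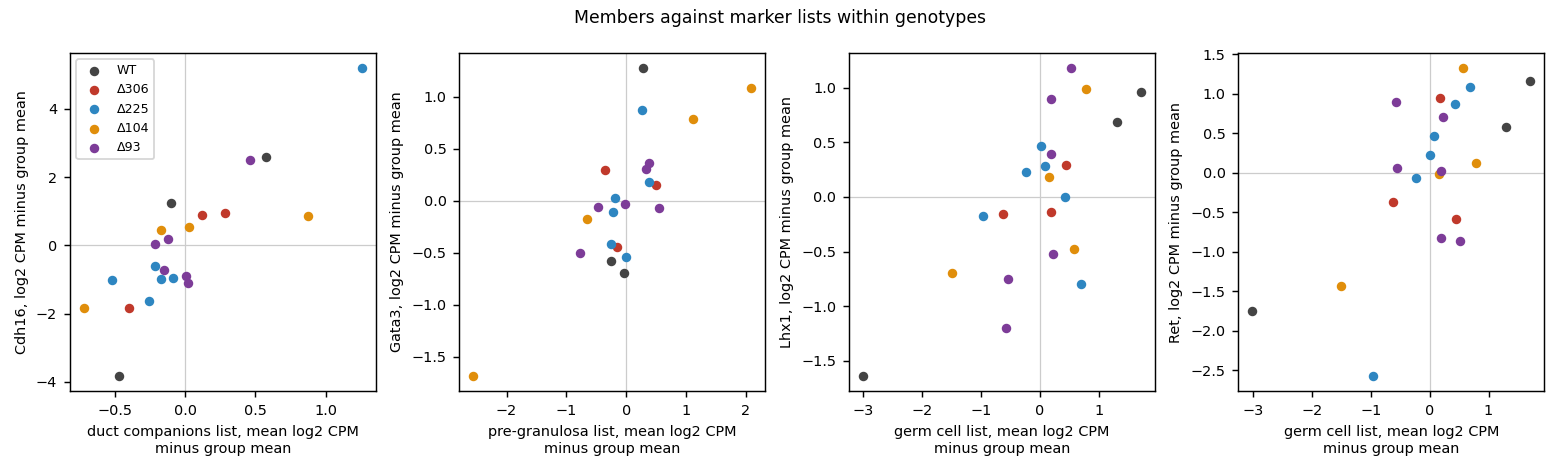
Each point is 1 library, placed by its distance from its group mean in a marker list (x, mean log2 CPM) and a member (y, log2 CPM), with colour for the genotype. Cdh16 rises along the duct list and Gata3 along the pre-granulosa list, and the lowest germ-cell point of the 2 right panels is WT replicate 1.

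Among 16153 genes of at least 1 CPM on average, the 3 whose group-centred levels were most like each member were named by Pearson's r over the 22 libraries, as a description. They included Kif12 (0.93) and C1s1 (0.89) for Cdh16, and Kif12 (0.89) for Hnf4a, so Kif12, a kinesin, appeared for both. Gata3 had Gata2 (0.92), Ano1 (0.90) and Frem2 (0.90), and Pax8 had Prr36, Dok6 and Dclk1 (0.87 each). Pax2 had Fabp4 (0.86), Tbx3 (0.85) and Ntm (0.85), Wnt9b had Cldn4 (0.81), Crabp1 (0.80) and Astn1 (0.80), and Sim1 had Dpp4 (0.86), Myog (0.86) and Myom1 (0.85). For Ret they were Brsk2 (0.89), Tmem130 (0.88) and Snapin (0.87), and for Lhx1 Kpna2 (0.95), Ttpa (0.94) and Ube2c (0.93). The 3 of Lhx1 include Kpna2 and Ube2c, an import receptor and a mitotic ubiquitin-conjugating enzyme of dividing cells.

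The Meis1 KO libraries also differed among themselves in Cdh16, Hnf4a, Wnt9b and Sim1. Cdh16 was at 20.1, 1.2, 20.5 and 0.150 CPM in KO replicates 1 to 4, and at 14.4, 0.0634 and 5.60 CPM in WT as counted in that table. Hnf4a was at 7.55, 0.0719, 5.89 and 0.107 CPM, with 0.324, 0.0845 and 1.71 CPM in WT. KO replicates 1 and 3 were thus high in both genes and replicates 2 and 4 low, and Wnt9b (2.81, 0.504, 2.57 and 0.258 CPM) and Sim1 (0.490, 0.0480, 1.11 and 0 CPM) had the same layout.

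The other members were closer together. Pax8 was at 3.78 to 7.37 CPM in KO and 4.65 to 7.70 CPM in WT, Gata3 at 2.13 to 2.94 and 1.4 to 5.49 CPM, and Pax2 at 0.794 to 2.63 and 0.866 to 7.67 CPM. Ret was at 3.50 to 6.12 CPM in KO and 1.62 to 11.9 CPM in WT, and Lhx1 at 12.8 to 18.6 and 5.16 to 30.8 CPM. For these 5 the KO range lay inside the WT range or overlapped it. In Meis1 KO against WT 0 of 9 members were called by edgeR and 0 by DESeq2, where edgeR called 1.8% of all genes, and 0 were at an unadjusted p under 0.05, against 19.3% of all genes. Pax8 differed by -0.14 ± 0.28 on the log2 scale and Hnf4a by 2.30 ± 1.53. Without WT replicate 1 Ret and Lhx1 were lower in KO (-1.09 and -0.80, adjusted p = 0.0286 and 0.0153), so the lack of a call for these 2 rests on that library. Meis1 KO was counted in its own table, so its levels are not set against the deletions.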

How the data were processed

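RNA-seq of 26 gonad samples was analysed from raw counts per gene deposited by the authors in 3 tables. Per the submitters' processing notes, STAR (2.7.10a for some samples), featureCounts from Subread and DESeq2 were used on mm10. Annotation and counting strand are not given in the sources used here. The authors' comparison table served only to map identifiers to symbols. Genes were tested with edgeR 4.0.16 (filterByExpr, TMM, quasi-likelihood F-test, Benjamini-Hochberg adjustment over all genes tested, called under 0.05), in 1 fit of 22 libraries (22941 genes) and 1 of the Meis1 table (16791 genes), making 11 comparisons. The SE is the log2 fold change over the square root of F. The code was tested on simulated data. Relations used log2 CPM (prior count 2) centred on group means, with 100000 permutations within groups. Positions and exon lengths come from GENCODE M21 on GRCm38. Promoters come from RefSeq, where 7 of 9 members were found, Ret and Cdh16 not among them. Motifs were searched on both strands.

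The members and the 12 other gene lists were chosen with earlier results of these data known. All members are named. Of the lists, genes called are named, at most 4 per comparison by adjusted p, and for each member the 3 genes most like it, except that some genes this rule names, and some motif matches, are not reported here. Samples sharing a number showed no common deviation in every pair of any comparison (correlations from -0.31 to 0.48), so the numbers were not used as pairs. Alternatives covered another tool, scalings, filters, a stricter threshold, a replicate block, fits of the groups alone and leaving out each library.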

Additional observations from a re-analysis of the deposited data

Results flagged for a closer look

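In 7 of 36 gene and group combinations of 4 to 6 samples, 1 library stood far from the others by Dixon's criterion, which chance meets in about 1 in 20 groups. Of these, 5 were Δ225 replicate 3: Cdh16 at 26.3 CPM against 0.174 to 0.415 CPM in the other 5 libraries, Hnf4a at 9.43 against 0 to 0.217 CPM, Pax2 at 7.16 against 0.537 to 1.01 CPM, Sim1 at 2.03 against 0 to 0.13 CPM and Wnt9b at 2.32 against 0 to 0.635 CPM. The other two were Δ93 replicate 4, with Cdh16 at 9.84 CPM against 0.754 to 1.96 CPM and Hnf4a at 5.41 CPM against 0.0211 to 0.141 CPM. The combinations share libraries, so they are not independent. The rate of 1 in 20 holds for normally distributed values, which CPM at or near 0 were not shown to be. No Gata3, Pax8, Ret or Lhx1 value met the criterion in these groups, and groups of 3 were not examined.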

How the results depend on the processing

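Of 1805 member values under alternatives, 87 changed sign and 3 of those with a call. Leaving out each library, Cdh16 in Δ225 against Δ93 ran from -3.18 (without Δ225 replicate 3) to 1.84 (without Δ93 replicate 4), and it was -3.12 without Δ225 replicate 3 and WT replicate 1 (0.77 with all libraries), and without both Pax2 in Δ93 against WT was 1.32 (-0.16 with all). The numbers of members called, with all libraries and then lowest to highest over leaving out each library, were 0 (0 to 1) in Δ306, 0 (0 to 0) in Δ225, 0 (0 to 0) in Δ104 and 2 (1 to 3) in Δ93 against WT, 1 (1 to 4) in Δ225 against Δ306, 1 (0 to 1) against Δ104, 2 (2 to 4) against Δ93, and 0 (0 to 2) in Meis1 KO. DESeq2 called 2 in Δ306 against WT, 3 in Δ225 against Δ306, 4 in Δ225 against Δ93, 1 in Δ93 against Δ306 and 3 in Δ93 against WT (Gata3 added). At a threshold of 0.01 the counts were 1 in Δ93 against WT, 0 in Δ225 against Δ104 and 1 in Δ225 against Δ93. With no composition factor 2 were called in Δ225 against Δ306, and the share of higher genes among all calls there was 34.2% against 49%, in Δ306 against WT 61.8% against 46.1%, and in Δ93 against Δ306 4% against 16.7%. Fitted alone, the counts were 1 in Δ306 against WT (1 also in the first count table), 2 in Δ225 against Δ306 and 0 against Δ104. With the replicate block, Δ225 against Δ104 had 0 called. The block also ended the call of Wnt9b (-3.72) and made one of Gata3 (2.00, edgeR adjusted p = 0.0256) in Δ93 against WT, and changed no other call. The counts under alternatives are given here without the share of all genes called in the same setting, so they describe the members only.

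Other sets of libraries were left out after seeing the data. Without WT replicate 1 and Δ225 replicate 3, 2 were called in Δ306 against WT, 5 in Δ225 against Δ306, 5 in Δ225 against Δ93 and 1 in Δ104 against Δ306. In Δ93 against WT the calls of Pax8 and Wnt9b were then lost (edgeR adjusted p = 0.053 and 0.186). Gata3 and Pax2 were called there instead (edgeR adjusted p = 0.0139 and 0.0477). Without Δ104 replicate 4 and Δ93 replicate 4, 2 were called in Δ306 against WT and 2 in Δ225 against Δ306. With all libraries, edgeR called 6.43% of all genes in Δ306 against WT and 13.2% in Δ225 against Δ306. It called 20.8% in Δ225 against Δ93, 0.0654% in Δ104 against Δ306 and 14.1% in Δ93 against WT. The shares without these libraries are not given, so the counts describe the members only. Of 72 relations, of which 28 passed with all libraries, 16 passed without Δ306, 10 without Δ225 and 0 without WT replicate 1 and Δ225 replicate 3. The cause was not tested, and each of these sets also holds fewer samples. Sim1 and Hnf4a were at or near 0 in most libraries, where depth limits what can be seen.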
